A study of Mus musculus with 29 samples.

Results

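Newly made RNA was set against the whole RNA pool of the same kind of cell, gene by gene, in mouse fibroblasts in which the MycER protein had not been activated. A gene was kept when it reached 1 FPKM in the nascent library or in the mean of the total RNA libraries, and its value was the log2 ratio of nascent to total FPKM after adding 0.5 FPKM to each. The rule kept 12981 of the 21675 genes listed. The 2 groups were nascent RNA (1 library, labelled for 10 min with 300 µM 4-thiouridine, written 4sU) and total RNA (4 libraries), which are 5 of the 29 samples of the series. Cells of both groups were 3T9 fibroblasts from embryonic day E13.5 of a mixed strain, carried c-myc flox/flox alleles, and had been infected in culture with MycER, a Myc protein that 4-hydroxytamoxifen switches on. All 5 libraries came from cells given ethanol, the vehicle, so no group here is free of the transgene. Libraries were made after removal of ribosomal RNA, and in bulk RNA fewer cells that express a gene and less RNA per cell cannot be told apart. Whether the total RNA libraries are separate cultures is not stated, so the spread between them may be technical. A second nascent library and 4 total RNA libraries, taken after 4 h of 400 nM 4-hydroxytamoxifen, served as the repeat of the comparison.

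A cell that is fed 4sU builds it into RNA made during the pulse, and the thiol group lets that RNA be tied to biotin and pulled out on streptavidin beads. Total RNA holds whatever has accumulated, so a transcript that is made fast and destroyed fast takes a larger share of the nascent fraction than of the pool, and a long-lived transcript takes a smaller one. Nascent RNA also holds transcripts that have not yet been spliced, and reads from their introns. In fibroblasts, transcripts of immediate early genes are known for short lives and those of metabolic enzymes for long ones.

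Nascent values were lower than total values for most genes on the deposited scale. The ratio had a median of -1.14, which is a total value 2.21 times the nascent one, with quartiles at -1.69 and -0.46 and a range of -4.19 to 3.31. A ratio above 0 was found for 1656 genes, or 12.8%. The summed FPKM was 138324 in the nascent library, against 318860 to 327119 in the total RNA libraries, so the median reflects the scale of the libraries and ratios are given below also relative to it. A gene was called when nascent and total differed at least 2-fold and the nascent value lay outside the range of the 4 total RNA libraries. On the deposited scale 243 genes (1.87%) were higher in nascent RNA and 7198 (55.5%) were lower. Relative to the median, 2054 genes (15.8%) were higher and 1114 (8.58%) lower, and the calls of gene groups below are on that scale. Each count of called members below is to be read against these shares of all genes. With 1 nascent library there is no replicate check at 0 h, and an exact two-sided permutation test of 1 library against 4 cannot go below p = 0.2. A limma fit over both times called 687 of 13187 genes (5.21%) higher and 9829 (74.5%) lower on the deposited scale at an adjusted p under 0.05. With the libraries centred on their medians it called 4715 of 13187 genes (35.8%) higher and 4399 (33.4%) lower. The fit holds 1 nascent library per time, so its error comes mostly from the spread of total RNA libraries.

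Abundant genes level off in these values, at a lower FPKM in the nascent library, whose summed FPKM was also lower. Whether they do so more strongly in nascent RNA was not tested. The highest value was 85.2 FPKM in nascent RNA, against 158 to 201 FPKM in total RNA, and the 99th percentile was 43.2 FPKM in nascent RNA, against 91.8 to 93.9 FPKM in total RNA. The median ratio moved with the total RNA level, which is also the denominator of the ratio: it was -0.32 for 1032 genes at 1 to 2 FPKM, -1.03 for 2664 genes at 10 to 20 FPKM and -1.66 for 1059 genes at 50 to 70 FPKM. Above 100 FPKM in total RNA it was -1.07, over 131 genes. The 246 genes under 1 FPKM in total RNA were kept through the nascent value alone, so their high ratios follow from the filter. The files give no counts. Low values fell only loosely on whole multiples of a step, so the reads behind each library could be estimated only roughly. By that estimate the nascent library held more reads than any total RNA library at 0 h, and the total RNA libraries held nearly equal numbers. The counting error of each value was not worked out. For the short gene Mir1942, total values of 1.86, 1.81, 0.939 and 0 FPKM lay near whole multiples of the lowest value above 0, so few reads stand behind them.

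**Figure D1:**
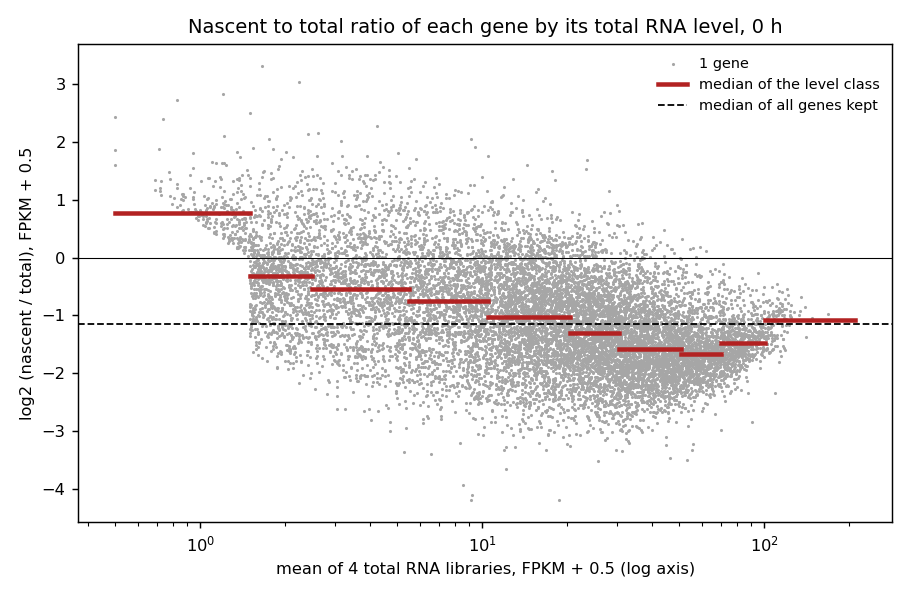
Each point is 1 of the 12981 genes, with its mean total RNA level on the x axis (FPKM + 0.5, log axis) and its log2 ratio of nascent to total RNA on the y axis. Red bars are medians of level classes, which fall to -1.66 at 50 to 70 FPKM and stand at -1.07 above 100 FPKM, and the dashed line is the median of all genes, -1.14.

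Of 15 fibroblast markers, 11 reached 1 FPKM in nascent RNA and 12 in the mean of total RNA, among them Col1a1, Vim and Prrx1. In any 0 h library 14 did, Thy1 and Lum in total RNA replicate 1 alone, while Fap stayed between 0.026 and 0.124 FPKM. The 4 neural markers summed to 41.8 FPKM in nascent RNA and 64.9 to 75.7 FPKM in total RNA, mostly from Nes and Tubb3. Markers of epithelium, endothelium and skeletal muscle each summed to 2.97 FPKM or less in every library. Total RNA replicate 4 stood apart in genes of macrophages. The 5 macrophage markers summed to 13.3 FPKM in nascent RNA, 52.8 FPKM in total RNA replicate 4 and 7.82 to 11.4 FPKM in the other 3. In nascent RNA Lyz2, Ptprc and Emr1 were under 0.2 FPKM and Csf1r was at 1.21 FPKM, while Cd68 was at 11.8 FPKM, above its 5.76 to 9.99 FPKM in the total RNA libraries. Ptprc was at 1.32 FPKM in replicate 4 and at 1.35 FPKM in replicate 1, so it did not set replicate 4 apart. In that replicate 26 genes were at 5 FPKM or more and at least 10 times the highest of the other 3, including Lyz2, Saa3, Ccl4, Ccl5, Irg1 and Tnf. Results that rest on replicate 4 are therefore given with and without it.

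Leaving out predicted genes and small RNAs, the largest ratios among genes at 5 FPKM or more belonged to genes of low level in total RNA. Muc6, a gel-forming mucin, had 8.03 FPKM in nascent RNA, against 0.872, 0.780, 0.431 and 0.734 FPKM in total RNA. Nav2, a cytoskeletal protein of axon growth, had 7.97 FPKM in nascent RNA, against 1.17, 1.20, 0.787 and 0.826 FPKM in total RNA. For both genes the nascent value lay above all 4 total values, as the choice of genes required, with ratios of 2.82 and 2.50. Their total RNA means were under 1 FPKM, so both were kept through the nascent value alone. Mid1, a microtubule-bound ubiquitin ligase, had 20.0 FPKM in nascent RNA, against 3.57, 4.46, 2.57 and 4.34 FPKM in total RNA. Has1, a hyaluronan synthase, had 11.1 FPKM in nascent RNA, against 2.12, 2.47, 1.38 and 2.52 FPKM in total RNA. Tcf7l2, a transcription factor of Wnt signalling, had 12.3 FPKM in nascent RNA, against 3.20, 3.04, 1.89 and 2.51 FPKM in total RNA. The ratios of these 3 genes were 2.28, 2.15 and 2.02, and in each of them replicate 3 was the lowest total library.

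Dnm1, a dynamin that pinches off vesicles, had 5.27 FPKM in nascent RNA, against 1.04, 1.45, 0.632 and 1.06 FPKM in total RNA, a ratio of 1.90. After 4 h of 4-hydroxytamoxifen, in libraries that did not enter the choice, the 6 genes had ratios of 1.61 to 2.64.

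The smallest ratios included 2 that rest on replicate 4. Lyz2, the lysozyme of macrophages, had 0.037 FPKM in nascent RNA, against 0.093, 0.097, 0.094 and 34.5 FPKM in total RNA, so its ratio was -4.10 with replicate 4 and -0.15 without it. Irg1, the enzyme that makes itaconate in activated macrophages, had 0.125 FPKM in nascent RNA, against 0.206, 0.328, 0.204 and 23.5 FPKM in total RNA, with ratios of -3.39 and -0.26. The choice of genes required a nascent value outside the range of the total RNA libraries, and the other 6 did not rest on replicate 4. Nqo1, a quinone reductase of the oxidant defence, had 2.59 FPKM in nascent RNA, against 36.5, 28.1, 33.2 and 25.0 FPKM in total RNA, a ratio of -3.34. Ccl7, a chemokine that draws in monocytes, had 2.47 FPKM in nascent RNA, against 35.2, 27.6, 29.7 and 24.4 FPKM in total RNA, a ratio of -3.32. For both genes the nascent value lay far below the lowest total library.

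Ccdc109b, a subunit of the mitochondrial calcium uniporter, had 1.18 FPKM in nascent RNA, against 19.0, 14.8, 18.4 and 12.9 FPKM in total RNA, a ratio of -3.33. Prl2c3, a proliferin, had 4.19 FPKM in nascent RNA, against 67.7, 48.3, 65.2 and 28.8 FPKM in total RNA, a ratio of -3.50. Hist3h2ba, a histone H2B gene, had 0.695 FPKM in nascent RNA, against 12.1, 10.7, 13.5 and 9.36 FPKM in total RNA, a ratio of -3.32. A histone pseudogene, Hist3h2bb-ps, had 0.463 FPKM in nascent RNA, against 12.5, 11.95, 12.3 and 9.89 FPKM in total RNA, a ratio of -3.66. Proliferins and histone genes have near-identical copies among which reads can be split, so their levels are uncertain. At 4 h the 6 genes had ratios of -3.37 to -2.22, while Lyz2 stood at 0.15 and Irg1 at -0.08.

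**Figure D2:**
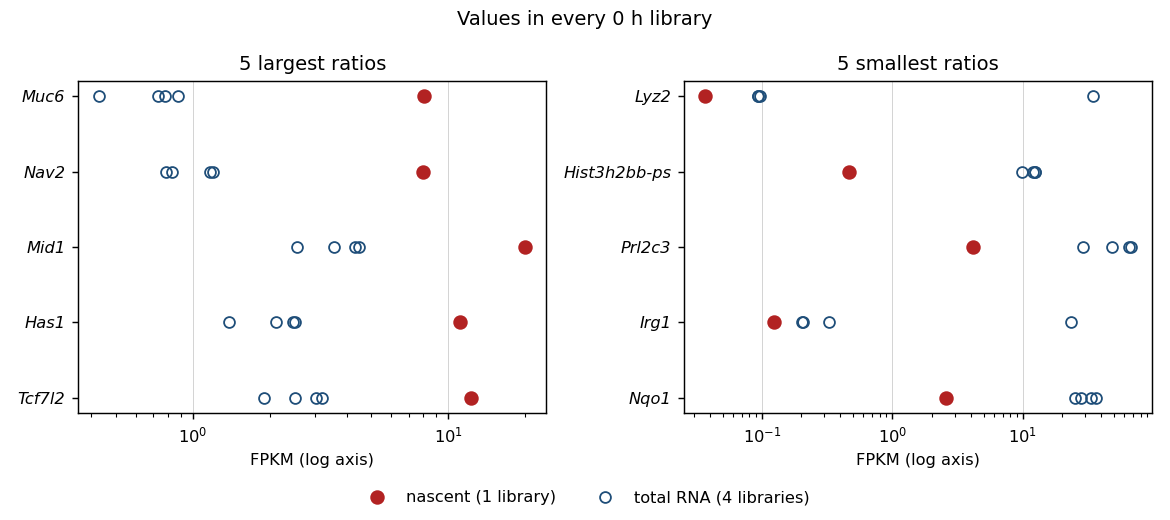
FPKM (log axis) of the genes with the 5 largest and the 5 smallest ratios in every 0 h library, with the nascent library as a filled point and the 4 total RNA libraries as open circles. The nascent point lies outside the total RNA circles for each gene shown, as the choice of genes required. For Lyz2 and Irg1 a lone circle, replicate 4, lies far to the right.

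The highest ratio of all kept genes belonged to a microRNA gene. MicroRNA genes encode hairpins that are cut from longer primary transcripts, often from an intron of a host gene, and yield mature strands whose bases 2 to 8, the seed, choose the target messages. The deposited values are per annotated gene, not per mature strand. Of 527 microRNA genes listed, 293 were kept, 25 of them through the nascent value alone and 27 through the total value alone. The median ratio of the kept genes was -0.12, against -1.14 for all genes, and 146 were called higher and 12 lower. Over the 241 at 1 FPKM or more in both kinds of RNA the median was -0.12, and 195 of them lay above the median of all genes. Mature strands of the genes with the highest and lowest ratios, and of those farthest above and below their host genes among pairs whose microRNA gene reached 1 FPKM in both kinds of RNA, are shown with the seed in capitals (RefSeq, GRCm38.p6), and 9 of the 11 genes looked up had one. For Mir1942 and Mir669g none is shown.

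mmu-miR-125b-5p: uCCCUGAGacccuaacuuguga
mmu-miR-125b-1-3p: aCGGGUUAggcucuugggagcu
mmu-miR-1969: aAGAUGGAgacuuuaacaugggu
mmu-miR-1983: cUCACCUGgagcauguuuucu
mmu-miR-1929-5p: uUCUAGGAcuuuauagagcagag
mmu-miR-3095-3p: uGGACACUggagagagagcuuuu
mmu-miR-1192: aAACAAACaaacagaccaaauu
mmu-miR-1933-3p: cCAGGACCaucagugugacuau
mmu-miR-1960: cCAGUGCUguuagaagagggcu
mmu-miR-1982-5p: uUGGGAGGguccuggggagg

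Mir125b-1 (5p strand at chr9:41581940-41581961, plus strand) had 18.0 FPKM in nascent RNA, against 1.99, 1.90, 1.29 and 1.81 FPKM in total RNA, a ratio of 3.04. Its 5p seed is shared by 2 other kept genes, of which Mir125a had 23.2 FPKM in nascent RNA and a mean of 12.7 FPKM in total RNA, a ratio of 0.85, and Mir351 had 4.35 FPKM in nascent RNA and a mean of 9.70 FPKM in total RNA, a ratio of -1.07. Genes of 1 seed thus spanned from the top of the range to near the median of all genes. Mir1942 had 15.95 FPKM in nascent RNA, against 1.86, 1.81, 0.939 and 0 FPKM in total RNA, a ratio of 3.31. Mir1969 (chr8:70925541-70925563, plus strand) had 4.96 FPKM in nascent RNA, against 0.607, 0, 0 and 0.691 FPKM in total RNA, a ratio of 2.73. Mir1942 and Mir1969 are short, at 63 and 94 bases, and each had 0 FPKM in at least 1 total library. Few reads stand behind their total values, so the size of these 2 ratios is uncertain. Mir1969 was also kept through the nascent value alone. At the other end, Mir1983 (chr13:21896930-21896950, minus strand) had 1.63 FPKM in nascent RNA, against 22.4, 19.3, 27.1 and 10.8 FPKM in total RNA, a ratio of -3.26. At 4 h these ratios were 3.45 for Mir125b-1, 2.56 for Mir1942, 1.16 for Mir1969 and -3.43 for Mir1983.

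The ratio of microRNA genes differed with their place in other genes. Those inside an intron of a longer gene had a median of 0.16 on the same strand (147 genes) and 0.46 on the opposite strand alone (25 genes), and the 118 not nested had -0.60. Restricting to genes at 1 FPKM or more in both kinds of RNA gave 0.22 (118 genes), 0.48 (22 genes) and -0.69 (98 genes). A microRNA gene could be set beside its own host in 129 pairs with 92 hosts, and its ratio was above that of the host in 85, with a median difference of 0.77. Among the 106 pairs whose microRNA gene reached 1 FPKM in both kinds of RNA it was above in 73, with a median difference of 0.76. Pairs are not independent, since hosts such as Sfmbt2 hold many microRNA genes, in that host mostly below it. Where a gene lay in several hosts, the pair took the host with the highest total level. Over the 129 pairs the median total level was 3.7 FPKM for microRNA genes and 14.0 FPKM for hosts. The ratio falls with that level, and these differences were not adjusted for it. Whether the counting used strand is not given in the sources used here, and reads of an unspliced host and reads of the nested gene cannot be told apart in these values.

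Among these pairs the widest gap was at Mir1942 in Plec, the gene of a cytoskeletal linker, where the host had 44.1 FPKM in nascent RNA, against 66.0, 54.1, 72.1 and 58.1 FPKM in total RNA. The host's ratio was -0.50, which is 3.82 below that of Mir1942. Mir1929 had 3.47 FPKM in nascent RNA, against 2.52, 1.23, 0.726 and 0 FPKM in total RNA, a ratio of 1.29. Its host Atg5, a factor of autophagosome growth, had 8.38 FPKM in nascent RNA, against 48.8, 38.6, 56.4 and 48.7 FPKM in total RNA, a ratio of -2.45. The gene pair thus lay on opposite sides of 0, as did Mir3095 with Lpar1, Mir1192 with Klf9, Mir1933 with Ugp2 and Mir1960 with Hadhb, whose differences were 2.98 to 3.57. Total values of these microRNA genes were mostly low, so few reads may stand behind them. The other way round, Mir1982 had 8.24 FPKM in nascent RNA, against 34.4, 33.5, 35.1 and 19.0 FPKM in total RNA, while its host Oaz1, the antizyme of polyamine control, had 28.0 FPKM in nascent RNA, against 26.3, 22.8, 26.2 and 23.2 FPKM in total RNA. That difference was -2.01, and that of Mir669g from its host Sfmbt2 was -1.67.

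Small nucleolar RNAs guide the chemical marking of ribosomal RNA, are cut from introns of host genes and are stable once made. All 104 kept genes of this class, with those of Cajal bodies, reached 1 FPKM in both kinds of RNA, and their median ratio was -0.75, with 19 called higher and 3 lower. Scarna6 was lowest, with 8.39 FPKM in nascent RNA, against 71.1, 52.9, 85.5 and 70.2 FPKM in total RNA, a ratio of -2.99. Snora30 was highest, with 18.8 FPKM in nascent RNA, against 10.1, 8.78, 7.47 and 7.14 FPKM in total RNA, a ratio of 1.12. The ratios of Snord71 and Snord92, 1.05 and 1.03 at 0 h, were -0.07 for each at 4 h. In 87 pairs with 69 hosts the small RNA was above its host in 32, with a median difference of -0.30. Median total levels in these pairs were 69.9 FPKM for the small RNA and 56.6 FPKM for the host. Whether this differs from microRNA genes was not tested, since pairs share hosts and libraries.

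Host genes of small nucleolar RNAs, whose spliced transcripts are known to be destroyed by the decay that reads premature stop codons, had a median of -0.23 over 16 genes, and 15 lay above the median of all genes. Called higher were 7 and lower 0. The fit over both times called 11 higher and 1 lower with centred libraries, and 4 higher and 8 lower on the deposited scale. Gas5 had 75.1 FPKM in nascent RNA, against 22.7, 22.2, 23.1 and 23.8 FPKM in total RNA, a ratio of 1.69. Snhg1 had 61.8 FPKM in nascent RNA, against 25.9, 29.2, 26.6 and 28.6 FPKM in total RNA, a ratio of 1.15. Total RNA libraries lay within a narrow band for both genes, and the nascent value was more than 2-fold above the highest of them. Taf1d, a subunit of the factor that starts ribosomal RNA synthesis, had a ratio of 0.60, and Snhg10 was lowest at -1.66. Snord47, which lies in Gas5, had 75.6 FPKM in nascent RNA, against 115, 116, 106 and 113 FPKM in total RNA, so the guide RNA and its host differed in ratio by 2.26.

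Long noncoding RNAs of the nucleus had a median of -0.21, and each of the 11 kept lay above the median of all genes, with 5 called higher and 0 lower. Neat1, the scaffold of paraspeckles, had 49.5 FPKM in nascent RNA, against 18.7, 19.9, 15.5 and 14.8 FPKM in total RNA, a ratio of 1.5. Ftx, a regulator of the X inactivation centre, had 11.7 FPKM in nascent RNA, against 6.26, 6.29, 5.69 and 6.35 FPKM in total RNA, a ratio of 0.88. Pvt1, the neighbour of Myc, had 24.0 FPKM in nascent RNA, against 12.6, 13.5, 11.9 and 15.2 FPKM in total RNA, a ratio of 0.82. For these 3 genes the nascent value exceeded every total library. Malat1, a long-lived RNA of nuclear speckles, was the lowest of the class, with 61.4 FPKM in nascent RNA, against 121, 98.98, 103 and 103 FPKM in total RNA, a ratio of -0.79, and at that level values level off.

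Splicing factors and hnRNPs, proteins that bind pre-messenger RNA or take part in its splicing, had a median of -0.50 over 50 genes. Of these, 43 lay above the median of all genes, 16 were called higher and 0 lower. The fit over both times called 36 higher and 1 lower with centred libraries, and 9 higher and 30 lower on the deposited scale. Luc7l2, a partner of the U1 particle, had 24.4 FPKM in nascent RNA, against 11.3, 11.4, 10.2 and 12.4 FPKM in total RNA, a ratio of 1.07. Srsf11 had 31.8 FPKM in nascent RNA, against 15.2, 15.4, 15.9 and 16.9 FPKM in total RNA, a ratio of 0.98. For both, the nascent value exceeded every total library, and Srsf9 was the lowest of the list at -1.53. Factors of deadenylation and mRNA decay had a median of -0.91 over 49 genes, with 6 called higher and 0 lower. Zc3h12a, a nuclease that cuts inflammatory messages, had 7.98 FPKM in nascent RNA, against 4.31, 3.81, 3.71 and 3.35 FPKM in total RNA, a ratio of 0.98, and Exosc4, a subunit of the exosome, was lowest at -2.08.

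Immediate early genes, which growth factors switch on within minutes and whose messages are short-lived, had a median of -0.92 over 31 genes, with 20 above the median of all genes. Called higher were 3 and lower 1, which are 9.68% and 3.23% of them, against 15.8% and 8.58% of all genes. Egr3 had 6.62 FPKM in nascent RNA, against 1.57, 1.78, 0.987 and 2.17 FPKM in total RNA, a ratio of 1.74. Fosb had 1.68 FPKM in nascent RNA, against 1.19, 0.643, 0.428 and 0.723 FPKM in total RNA, a ratio of 0.81. Egr1 had 29.2 FPKM in nascent RNA, against 18.7, 21.8, 11.9 and 21.0 FPKM in total RNA, a ratio of 0.65. In these 3 genes, which encode zinc finger and AP-1 transcription factors, the nascent value was above each total library. Fosb was kept through the nascent value alone and is 1 of the 3 called higher. Jund, an AP-1 factor, was at the other end, with 6.17 FPKM in nascent RNA, against 37.4, 30.9, 46.1 and 32.7 FPKM in total RNA, a ratio of -2.48.

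Myc had 33.1 FPKM in nascent RNA, against 24.4, 29.7, 20.3 and 23.0 FPKM in total RNA, a ratio of 0.43, which is 1.58 above the median of all genes. The nascent value was above each total library. In the limma fit over both times with centred libraries Myc was higher in nascent RNA at an adjusted p of 1.86e-06 (0.00141 on the deposited scale), and its ratio was 1.18 at 4 h. That p does not measure the spread between nascent replicates, and the fit includes cells given 4-hydroxytamoxifen. Whether reads of the MycER transgene are counted in Myc is not given in the sources used here. Its network, the dimer partners and rivals of Myc, had a median of -1.21 over 12 genes, with 4 called higher and 1 lower. Mxd4, a repressor that competes for the partner Max, had 6.61 FPKM in nascent RNA, against 41.5, 55.6, 42.7 and 34.1 FPKM in total RNA, a ratio of -2.63, and Mlx and Mycl1 had -1.90 and -1.85.

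Cytokines and growth factors had a median of -1.14 over 22 genes, and -0.83 over 20 genes without replicate 4. Cxcl12, Hbegf and Vegfa, a chemokine, a ligand of the EGF receptor and a vessel growth factor, had the highest ratios, 0.25, 0.13 and 0.02. Cxcl10, an interferon-driven chemokine, had 0.017 FPKM in nascent RNA, against 0.196, 0.290, 0.327 and 18.3 FPKM in total RNA, and its ratio was -3.35 with replicate 4 and -0.58 without it. Inhibitors that feed back on signalling had a median of -1.26 over 27 genes, with 3 called higher and 2 lower. Smad6 and Socs3, brakes on BMP and cytokine signals, had ratios of -2.21 and -2.15, and Spred2, a brake on Ras signalling, had 0.34. Clock genes had a median of -0.82 over 16 genes, with 3 called higher and 0 lower. Cry2, a repressor of the clock, had 6.44 FPKM in nascent RNA, against 4.29, 4.39, 3.13 and 3.80 FPKM in total RNA, a ratio of 0.66, and Dbp, an output factor of the clock, was lowest at -1.81.

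Cytosolic ribosomal proteins, whose messages are among the most abundant and long-lived of a cell, had a median of -0.86 over 78 genes, all at 1 FPKM or more in both kinds of RNA. Of these, 74 lay above the median of all genes, 10 were called higher and 0 lower, against 15.8% and 8.58% of all genes. The fit over both times called 42 higher and 0 lower with centred libraries, which calls 35.8% of all genes higher, and 3 higher and 64 lower on the deposited scale. Their median total level was 90.1 FPKM, where values level off. Rps24 had 45.02 FPKM in nascent RNA, against 18.5, 17.2, 16.6 and 17.9 FPKM in total RNA, a ratio of 1.33. Rpl11 had 46.0 FPKM in nascent RNA, against 29.9, 26.6, 23.4 and 26.3 FPKM in total RNA, a ratio of 0.78. Rps12 had a ratio of 0.32, and Rpl22 was lowest at -1.30. Genes of ribosomal proteins have many processed copies, so reads can be split among them. Translation factors had a median of -0.80 over 34 genes, with 6 called higher and 0 lower. Eif3a, Eef1d and Eif2s2 were highest, at 0.54, 0.52 and 0.36, and Eif1a was lowest at -1.68.

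Oxidative phosphorylation subunits lay on the other side, with a median of -1.48 over 75 genes, of which 18 were above the median of all genes. Called higher were 3 and lower 2, against 15.8% and 8.58% of all genes. The fit over both times called 7 higher and 41 lower with centred libraries, where it calls 35.8% and 33.4% of all genes. On the deposited scale it called 1 higher and 72 lower. The median total level of the list was 64.5 FPKM, and relative to genes of like level its median ratio was -0.12. Ndufv1, the NADH-binding subunit of complex I, had 15.4 FPKM in nascent RNA, against 74.0, 71.0, 87.4 and 62.8 FPKM in total RNA, a ratio of -2.23. Ndufa10 and Ndufc2, also of complex I, had -2.16 and -2.11. Atp5j2, a subunit of the ATP synthase, went the other way, with 18.8 FPKM in nascent RNA, against 11.0, 10.5, 9.44 and 10.3 FPKM in total RNA, a ratio of 0.83. Of 28 mitochondrially encoded names none was found in the fibroblast files.

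Replication-dependent histone genes, whose messages end in a stem-loop in place of a poly(A) tail, had a median of -1.49 over 55 genes, and 2 lay above the median of all genes. Called higher were 0 and lower 3, against 15.8% and 8.58% of all genes. Hist2h2ab had 9.77 FPKM in nascent RNA, against 60.6, 70.7, 67.9 and 66.4 FPKM in total RNA, a ratio of -2.70, and Hist4h4 had -2.34. Hist1h2ao was highest, with 38.3 FPKM in nascent RNA, against 41.6, 56.2, 45.3 and 53.02 FPKM in total RNA, a ratio of -0.35. At 4 h the median of the same 55 genes was -1.01, against -1.06 for all genes kept at both times, so its place below the median was not seen at that time. Near-identical copies share reads here too.

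Cholesterol synthesis had a median of -1.69 over 22 genes, with 2 called higher and 3 lower. Mvd, which makes isopentenyl diphosphate, had 3.47 FPKM in nascent RNA, against 26.2, 39.6, 31.97 and 29.7 FPKM in total RNA, a ratio of -3.03. Ebp, a sterol isomerase, had 4.02 FPKM in nascent RNA, against 29.9, 30.2, 32.5 and 31.3 FPKM in total RNA, a ratio of -2.80. For both, each total value was more than 6 times the nascent one, while Tm7sf2, a sterol reductase, was highest in the list at 0.30. Lysosome genes had a median of -1.60 over 31 genes, with 1 called higher and 5 lower. Lipa, the acid lipase, had 4.58 FPKM in nascent RNA, against 34.2, 29.3, 37.5 and 31.4 FPKM in total RNA, a ratio of -2.73. Scarb2, an enzyme carrier, had -2.48, and Lamp2, a membrane protein, had 0.26.

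Targets of p53 had a median of -1.27 over 22 genes, with 2 called higher and 6 lower, or 27.3% lower, against 8.58% of all genes. Without replicate 4, 5 were called lower, against 1194 of all 12947 genes kept. Over the 21 kept at both times the median was -1.33 at 0 h and -1.06 at 4 h. All genes kept at both times had -1.16 and -1.06, so the list's place below the median was not seen at 4 h. Ccng1, a cyclin that p53 switches on, had 8.51 FPKM in nascent RNA, against 57.4, 52.4, 56.8 and 54.96 FPKM in total RNA, a ratio of -2.63. Fas and Phlda3, a death receptor and an inhibitor of Akt, had -2.44 and -2.42, and Sesn2, a stress sensor, had 0.36. The 3 lowest genes were low in nascent RNA against each total library. Fas stood at -1.06 at 4 h, near the median of all genes at that time.

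DNA replication genes had a median of -1.39 over 38 genes, with 3 called higher and 3 lower. Rpa3, Gins3 and Gins4, of the single-strand binding complex and the replicative helicase, had -2.25, -2.22 and -2.15, and Pole, a leading-strand polymerase, had 0.29. Mitosis genes had a median of -1.17 over 30 genes, with 3 called higher and 0 lower. Ccnb2, a mitotic cyclin, was lowest at -1.91, and Prc1, which bundles spindle microtubules, was highest at 0.38. Cyclins and their inhibitors had a median of -1.26 over 24 genes, with 4 called higher and 0 lower, between Ccne1 at -2.14 and Ccnd3 at 0.58. Nucleolar ribosome biogenesis factors had a median of -1.29 over 46 genes, with none called at 0 h relative to the median and 10 higher and 17 lower in the centred limma fit over both times, between Imp3 at -1.99 and Npm1 at -0.27. Of lists near the median, proteasome genes had a median of -1.29 over 31 genes, with 3 called higher and 0 lower, and aminoacyl-tRNA synthetases -1.28 over 20 genes, with none called at 0 h relative to the median and 3 higher and 6 lower in the centred limma fit. On the deposited scale at 0 h, 33 of the nucleolar factors and 16 of the synthetases were lower. Adjusting each gene for its level put the lists of DNA replication, mitosis, cyclins and nucleolar factors at 0.02, 0.27, 0.01 and 0.07 above the level median, so their place below it was not kept. That adjustment was chosen after seeing the data.

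Matrix genes, the trade of fibroblasts, had a median of -0.98 over 37 genes, with 4 called higher and 3 lower. Col1a2, a chain of type I collagen, had 45.9 FPKM in nascent RNA, against 30.5, 30.3, 30.8 and 32.4 FPKM in total RNA, a ratio of 0.56. Plod2, which hydroxylates collagen lysines, had 10.7 FPKM in nascent RNA, against 50.1, 51.6, 52.3 and 65.2 FPKM in total RNA, a ratio of -2.30. Actin and adhesion genes had a median of -0.89 over 32 genes, with 7 called higher and 0 lower. Myh9, the nonmuscle myosin heavy chain, had 47.8 FPKM in nascent RNA, against 22.6, 32.2, 24.4 and 32.3 FPKM in total RNA, a ratio of 0.77, while Ezr, which ties actin to the membrane, had -2.07. Chaperones had a median of -1.05 over 32 genes, with 4 called higher and 2 lower. Hspa1b, an inducible heat shock protein, had 3.41 FPKM in nascent RNA, against 29.4, 30.6, 36.6 and 26.3 FPKM in total RNA, a ratio of -3.0. Glycolysis genes had a median of -0.99 over 22 genes, with 4 called higher and 0 lower, between the lactate carriers Slc16a1 at -1.96 and Slc16a3 at 0.63.

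Interferon-stimulated genes had a median of -1.41 over 18 genes, and -1.31 over 12 genes without replicate 4, with 2 called higher and 2 lower with it and 3 higher and 1 lower without it. Of the 18, 8 were kept through the total value alone. Over the 11 kept at both times the median was -1.31 at 0 h and -1.03 at 4 h, against -1.16 and -1.06 for all genes kept at both. Rsad2, an antiviral enzyme, had 0.445 FPKM in nascent RNA, against 0.627, 0.530, 0.352 and 22.3 FPKM in total RNA. Gbp2, a guanylate-binding protein, had 0.175 FPKM in nascent RNA, against 1.18, 1.29, 1.07 and 11.5 FPKM in total RNA. Without replicate 4 the ratio of Rsad2 was -0.09, against -2.77 with it, and that of Gbp2 was -1.32, against -2.66 with it. Ifit2, an RNA sensor, had 4.43 FPKM in nascent RNA, against 21.6, 29.96, 26.2 and 39.0 FPKM in total RNA, a ratio of -2.59, so its low nascent value held against each total library.

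**Figure D3:**
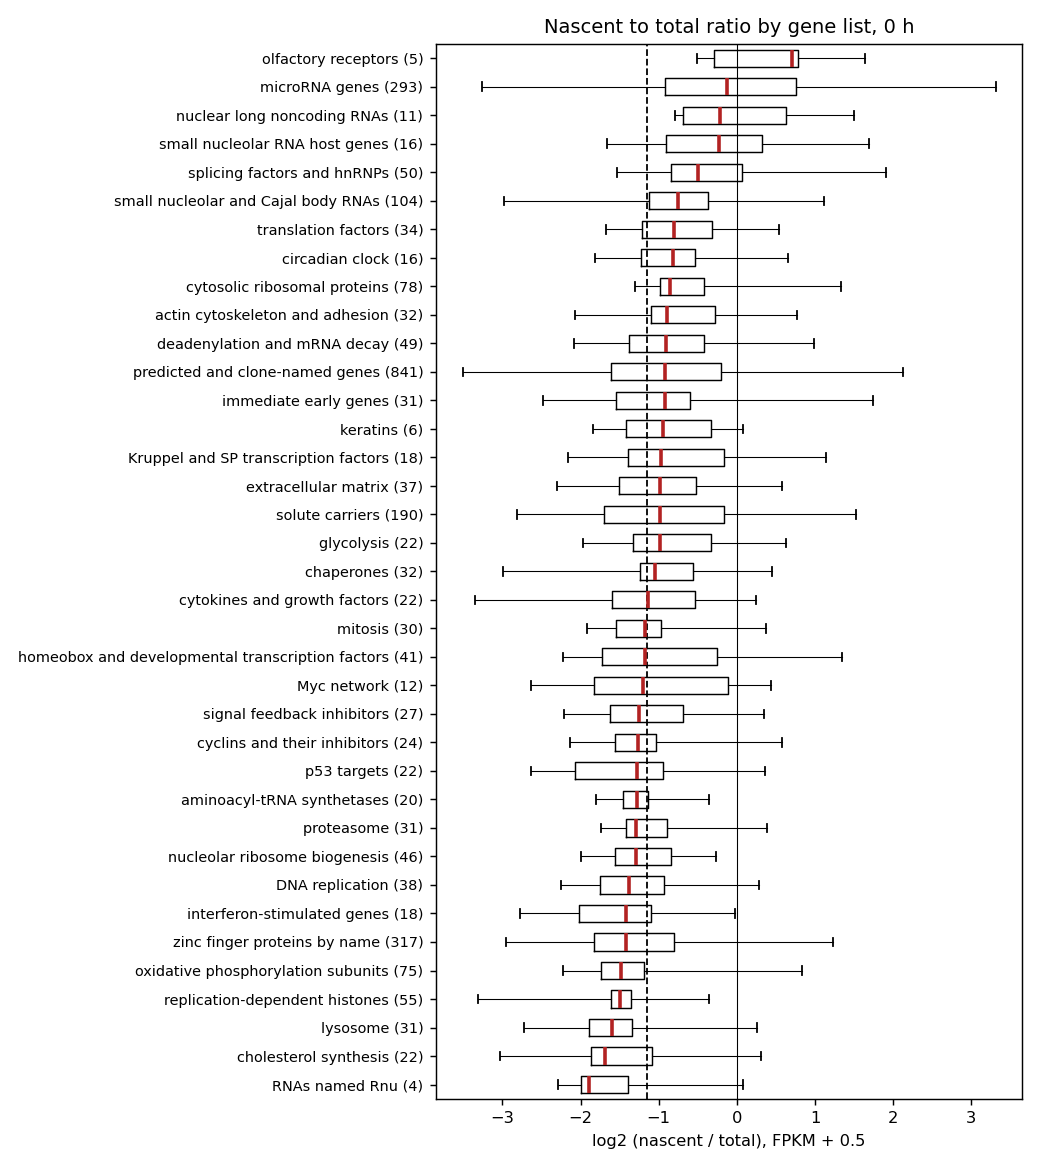
Log2 ratios of nascent to total RNA for each gene list, with the number of kept genes in brackets, sorted by median. Boxes span the quartiles, whiskers the lowest and highest member and red lines the medians, which run from -1.89 for 4 genes named Rnu, 3 of them small nuclear RNAs, to 0.70 for 5 olfactory receptors, 3 of them kept through the nascent value alone, with the dashed line at -1.14 for all genes.

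The ratio moved with the structure of the gene. Gene models were matched by symbol for 12855 genes (99%), of which 12038 are protein-coding. Their median ratio was -0.85 for 2627 genes with over 15 exons, -1.35 for 3224 genes with 5 to 8 and -1.52 for 374 genes with a single exon. Among genes at 5 to 20 FPKM in total RNA the medians were -0.59, -1.20 and -1.76. Spearman's rho across 12038 genes was 0.21 for exon number, 0.18 for the span of the gene and 0.20 for the length of the spliced transcript, and -0.01 for its GC content and -0.04 for its share of uridine, the base that 4sU replaces. Genes are not independent replicates, so these values are descriptions. Genes with all exons inside an intron of a longer gene had a median of -0.54 on the same strand (322 genes) and -0.63 on the opposite strand alone (258 genes), and genes neither nested nor overlapping had -1.21 (8210 genes). Among protein-coding genes, with exon overlaps left in, the medians were -1.38 nested on the same strand (123 genes), -0.99 nested on the opposite strand alone (269 genes) and -1.18 for the 11646 not nested, so nested genes on the same strand did not have the higher median there.

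**Figure D4:**
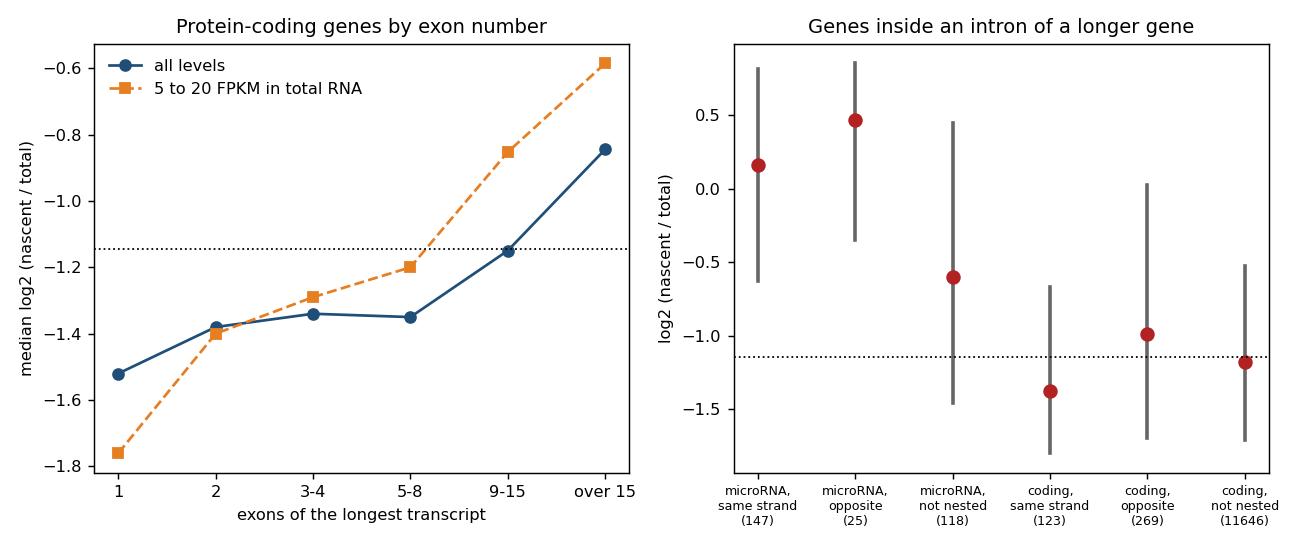
Left, median log2 ratio of nascent to total RNA of protein-coding genes by number of exons, for all levels and for genes at 5 to 20 FPKM in total RNA, where it runs between -1.76 and -0.59. Right, medians (points) and quartiles (bars) for microRNA and protein-coding genes inside an intron of a longer gene on the same strand, on the opposite strand and not nested, with gene numbers in brackets and the dotted line at -1.14.

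AU-rich elements in the 3′ untranslated region recruit decay factors to short-lived messages. The nonamer TTATTTATT, searched on the sense strand with overlapping matches counted, was held by 992 of the protein-coding genes with such a region (8.28%), whose median ratio was -1.03, against -1.20 for the 10986 without it. Within regions of 1000 to 2000 bases the medians were -0.95 and -1.19, and above 2000 bases -1.0 and -1.08. Called higher were 16.6% of genes with the word and 14.2% of those without. By length of the region these shares were 13.5% and 13.6% up to 1000 bases, 21.3% and 13.9% from 1000 to 2000 bases, and 15.3% and 15.7% above 2000 bases. Genes at both ends of the range held it, as in these sites of GENCODE M21 transcripts (GRCm38), with the nonamer in capitals.

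Nav2: aacttaatgcTTATTTATTc
Has1: aataaattttTTATTTATTttcttccaag
Sox9: tgtgctaaaaTTATTTATTttgtaaggag
Twist1: aacattctatTTATTTATTgatgacccat

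The site of Nav2 is at chr7:49610068-49610087 (plus strand), that of Has1 at chr17:17843325-17843353 (minus strand), that of Sox9 at chr11:112786749-112786777 (plus strand) and that of Twist1 at chr12:33959685-33959713 (plus strand). Sox9, a factor of cartilage fate, had 9.88 FPKM in nascent RNA, against 4.05, 3.67, 3.72 and 2.90 FPKM in total RNA, a ratio of 1.35. Twist1, a factor of mesenchymal fate, had 7.09 FPKM in nascent RNA, against 28.7, 39.2, 34.1 and 34.9 FPKM in total RNA, a ratio of -2.19. A matching word thus stood in genes whose nascent and total values were ordered in opposite ways. Developmental transcription factors as a list had a median of -1.17 over 41 genes, with 8 called higher and 3 lower, and Kruppel and SP factors -0.97 over 18 genes, with 5 called higher and 1 lower. Klf3, a repressor of that family, had a ratio of 1.14 and Sp4 had -2.16. Adjusted for level, that list stood at -0.03, below the level median.

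The comparison was repeated in the libraries taken after 4 h of 4-hydroxytamoxifen, which share no library with those of 0 h. Among 12648 genes kept at both times the ratios had a Pearson correlation of 0.948 and a Spearman correlation of 0.948 across genes, and the median absolute difference between times was 0.15. Relative to each time's median, 1545 genes were called higher at both, which is 78.9% of the 0 h calls and 88.7% of the 4 h calls. Called lower at both were 701 genes, or 63.0% of the 0 h calls and 75.3% of the 4 h calls, and 2 genes were called in opposite directions. Cells of the 4 h libraries had been given 4-hydroxytamoxifen, so the times are not replicates of a single state.

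**Figure D5:**
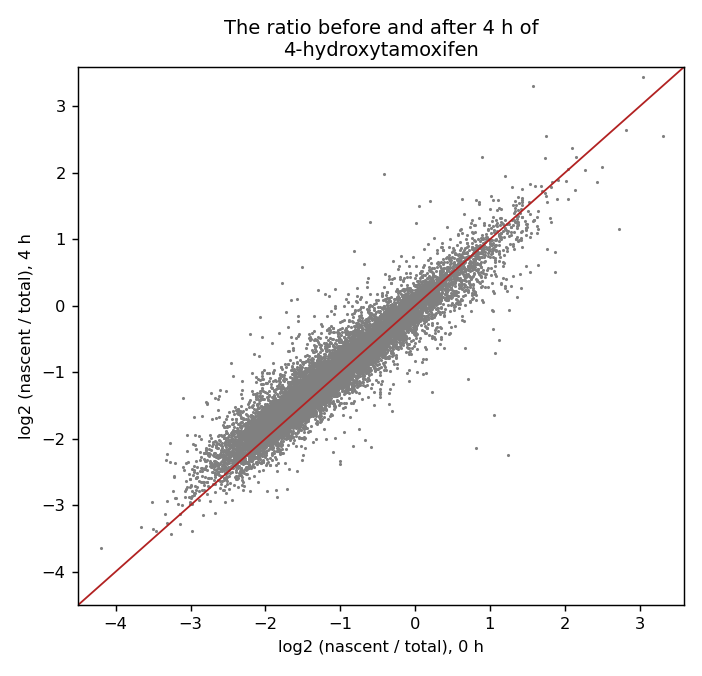
Log2 ratio of nascent to total RNA at 0 h (x axis) and after 4 h of 4-hydroxytamoxifen (y axis) for the 12648 genes kept at both times, with the line of equal values in red. Points follow the line with a correlation of 0.948 across genes.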

How the data were processed

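Total RNA (4 libraries, OHT_0h) and nascent 4sU RNA (1 library, 4sU_0h) of MycER fibroblasts were compared at 0 h, and OHT_4h (n = 4) with 4sU_4h (n = 1) at 4 h. Values are FPKM per gene, deposited as 1 file per library, per the file headers. Per the submitters' processing notes, HTSeq 0.5.3p9 and SAMtools were used beside TopHat and its version TopHat2 2.0.8, on build mm9. How strand, read filters, annotation and scaling were set is not given in the sources used here, and no counts were used. A filter or scaling that caps abundant genes would compress their ratios.

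The ratio is log2 of nascent FPKM + 0.5 over the mean total FPKM + 0.5, so fold changes of low genes are understated. Its precision rests on 1 nascent library. Genes at 1 FPKM or more in at least 2 of the 10 libraries were fitted with limma 3.58.1 in R 4.3.3 on log2(FPKM + 0.5), with terms for RNA kind and time (lmFit, eBayes with trend and robust, Benjamini-Hochberg, two-sided), on the deposited scale and with each library centred on its median. The fit was tested on simulated data in which nascent libraries were given the spread of the 0 h total RNA libraries. That test cannot check how nascent libraries vary. Tables used Python 3.11.15, NumPy 2.4.6 and pandas 2.3.3, and figures Matplotlib 3.10.9. Gene models, introns and 3′ UTRs came from GENCODE M21 (GRCm38), matched by symbol, so no coordinate was joined to mm9, and microRNA strands from RefSeq.

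Named genes are the 8 largest and 8 smallest ratios among genes at 5 FPKM or more in the higher group, above 0 in the other and outside the range of the total RNA libraries, leaving out predicted genes and small RNAs. In each list the 3 members farthest to the side of its median and the 1 farthest the other way are named, and Myc. A few genes that this rule picks are not reported here. Pairs of microRNA and host genes, Snord47, Mir125a and Mir351 were chosen after their values were seen. Members and the 38 lists were chosen with earlier results of these data known, so no list was tested. Alternatives were other pseudocounts, filters, scalings, level limits, the 4 h libraries and leaving out each library.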

Additional observations from a re-analysis of the deposited data

Results flagged for a closer look

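In a group of 4 total RNA libraries at 0 h, a single library can lie far from the other 3. Of 162 named genes, 17 had such a library by Dixon's test at the 95% level, and 12 of the 17 were in replicate 4. Chance gives about 1 in 20 groups where genes are not picked by these values. Most named genes were picked by their ratio to the mean of these same libraries, which an outlying library moves. The count can therefore not be set against that rate. Highest in replicate 4 were Lyz2 at 34.5 FPKM, Irg1 at 23.5 FPKM, Rsad2 at 22.3 FPKM, Cxcl10 at 18.3 FPKM and Gbp2 at 11.5 FPKM, genes of macrophages or of the interferon response, as well as Trib2 at 18.5 FPKM, Plod2 at 65.2 FPKM, Eif2s2 at 24.9 FPKM, Prc1 at 23.1 FPKM and Lars at 95.9 FPKM. Lowest in replicate 4 were 1190005I06Rik at 17.7 FPKM and Krt7 at 1.34 FPKM. Psmc3 was highest in replicate 1 at 107 FPKM and Mars highest in replicate 2 at 85.2 FPKM. Replicate 3 was lowest for Ftx at 5.69 FPKM and for Klf3 at 3.99 FPKM, and highest for Rnu12 at 65.5 FPKM. The macrophage markers summed to 52.8 FPKM in replicate 4, against 7.82 to 11.4 FPKM in the other 3 total RNA libraries. Their part in these values was not tested.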

How the results depend on the processing

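The split between genes higher and lower in nascent RNA depended on scaling. At 0 h, 243 genes were higher and 7198 lower on the deposited scale, against 2054 and 1114 after centring the ratios and 1750 and 1616 after quantile normalization. A filter of 5 FPKM left 136 higher, genes under 20 FPKM gave 2629 lower, and a 4-fold rule gave 14 higher and 1655 lower, since those settings hold fewer genes or ask for a larger fold. Leaving out each total RNA library in turn gave 197 to 263 higher and 7117 to 7261 lower. The fit over both times called 687 higher and 9829 lower, 4715 and 4399 after centring, 4151 and 4738 after quantile normalization, and 392 higher with a filter of 5 FPKM. Leaving out single libraries gave 347 to 780 higher and 8731 to 9983 lower in that fit, with 347 higher without the 0 h nascent library and 427 without the 4 h one, since a single nascent library then remains, assumed to vary like total RNA. Pseudocounts of 0.1 and 1 FPKM kept each count within 1.5 times. Of 162 named genes, 12 had a ratio of the other sign at 4 h, and 3 of the 12 had been called at 0 h on the deposited scale. These were Snord71 and Snord92, at -0.0722 and -0.0701, and Lyz2, which was under the filter at 4 h. The cause was not tested. Of 37 gene lists, 34 stayed on their side of the median with a pseudocount of 0.1 FPKM, 32 under quantile normalization, 33 at 4 h and 31 after adjustment for level, while 27 of 35 did so at 5 FPKM in either, 21 of 37 with no filter on low values and 15 of 27 among genes under 20 FPKM.

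With the replicate number as a replicate block, by an estimated correlation, 657 genes were higher and 9791 lower. This fit, the adjustment for level and the counts of list members without replicate 4 were chosen after seeing the data. Deviations of same-numbered total RNA libraries at the 2 times correlated at 0.186, 0.151, 0.0231 and 0.36. Replicates 1 and 2 of 0 h correlated best with replicate 3 of 4 h, at 0.226 and 0.176. Replicate 3 of 0 h did not reach 0.1 with its own number and correlated best with replicate 1 of 4 h, at 0.208. The 0.36 of replicate 4 was the highest of all pairs. Whether same-numbered samples share more than a number was not settled by these values. With 1 nascent library per time and no read counts, small differences and genes of low level are the least certain.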

Other observations

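Several families were grouped by name alone. Zinc finger proteins, mostly transcription factors, had a median of -1.42 over 317 genes, with 30 called higher and 34 lower, and the fit over both times called 74 higher and 142 lower with centred libraries, against 8 higher and 274 lower on the deposited scale. Zfp213 had 2.87 FPKM in nascent RNA, against 28.0, 25.2, 28.9 and 20.7 FPKM in total RNA, a ratio of -2.96. Zfp609 had 14.0 FPKM in nascent RNA, against 5.70, 6.54, 4.39 and 6.02 FPKM in total RNA, a ratio of 1.23. Solute carriers had a median of -0.98 over 190 genes, with 46 called higher and 19 lower. Slc16a4 had 10.7 FPKM in nascent RNA, against 3.78, 3.40, 2.21 and 5.31 FPKM in total RNA, a ratio of 1.43, and Slc25a15, a mitochondrial ornithine carrier, had 3.41 FPKM in nascent RNA, against 23.7, 24.8, 30.04 and 29.6 FPKM in total RNA, a ratio of -2.82. Predicted and clone-named genes had a median of -0.92 over 841 genes, 42 of them kept through the nascent value alone, with 195 called higher and 80 lower. Of these, 2610005L07Rik had 37.3 FPKM in nascent RNA, against 8.74, 8.58, 9.09 and 8.20 FPKM in total RNA, a ratio of 2.05.

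Genes named Rnu had a median of -1.89 over 4 genes, of which 3 are small nuclear RNAs and Rnu73b is annotated as a small nucleolar RNA nested in Rps3a1. Rnu12, of the minor spliceosome, had 10.3 FPKM in nascent RNA, against 48.5, 46.8, 65.5 and 48.9 FPKM in total RNA, a ratio of -2.29, and Rnu73b had 50.0 FPKM in nascent RNA, against 52.2, 58.5, 32.4 and 46.7 FPKM in total RNA. Keratins, which fibroblasts hardly use, had a median of -0.95 over the 6 of 103 that were kept, and -0.18 relative to genes of like level. Among olfactory receptors, 5 of 1116 were kept, 3 of them through the nascent value alone, and Olfr267 had 3.05 FPKM in nascent RNA, against 0.627, 0.440, 0.375 and 1.12 FPKM in total RNA.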
